A study of Mus musculus with 15 samples.

Results

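The genes examined were 57 genes of the mitotic spindle and kinetochore and of the chromosomes they move, out of 27803 gene names found in the 15 expression tables. They were taken as a list of gene symbols, and each of the 57 had a row in the combined tables. Expression was measured by Drop-seq, in which single cells are captured in droplets with barcoded beads and each captured mRNA molecule is counted once as a unique molecular identifier, or UMI. The samples were 5 cerebella of untreated wild-type C57BL/6 mice at postnatal day 7 (WT) and 10 medulloblastomas of M-Smo mice on the same background, with the genotype Math1-Cre:SmoM2/EYFPloxP/loxP. Of the tumors, 5 came from mice given vehicle and 5 from mice given vismodegib, an inhibitor of the Hedgehog signal transducer SMO, at 75 mg per kg, in 3 daily doses from P12 to P14, and all were taken at P15. Cre in these mice is driven by the Math1 (Atoh1) promoter, so the activated SmoM2 allele is switched on in Atoh1-expressing cells such as granule neuron progenitors and is carried by both tumor groups. The WT libraries were made with a PDMS droplet device, whereas a glass device and a spike-in of human cells were used for the tumors, so genotype, age and device cannot be told apart in any comparison of tumors with WT.

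At entry into mitosis, cyclin B and CDK1 drive the condensation of chromosomes, the bipolar spindle is built by motor and microtubule-binding proteins, and kinetochores form on centromeres to hold the spindle fibers. The spindle checkpoint delays separation until kinetochores are attached, after which the anaphase-promoting complex with CDC20 brings about the destruction of securin and cyclin B. Transcripts of most of these genes accumulate in G2 and mitosis, and in the postnatal cerebellum they are high in the dividing granule neuron progenitors of the external granule layer, from which SHH-driven medulloblastoma can arise.

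Promoters of many mitotic genes are known to hold CCAAT boxes and the cell cycle genes homology region, or CHR, with the letters TTTGAA or the variant TTCGAA. RefSeq promoter sequences of the mouse build GRCm38.p6, covering 250 bases before and 50 bases after each start, were matched to 47 of the 57 genes. CCAAT, read on both strands as CCAAT or ATTGG, was present in 70.2% of the 47 promoters and in 37.9% of the promoters of all 27025 genes. TTTGAA, read on both strands as TTTGAA or TTCAAA, was present in 70.2% of the 47 and in 18.1% of all promoters, and TTCGAA, which reads the same on both strands, in 8.51% and 1.57%. CCAAT together with either CHR form occurred in 29 of the 47 promoters, or 61.7%, against 7.7% of all promoters. Among 74 promoters of other mitotic genes the combination occurred in 28, or 37.8%, and among 31 promoters of DNA replication genes it occurred in 4, or 12.9%. CCAAT, with or without a CHR form, was present in 66.2% and 61.3% of these promoters, respectively. The motifs were searched one by one, so that matches may share bases, and a match is a description of the letters rather than a bound site.

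The 150 bases before the RefSeq start are printed for 6 genes, 5′ to 3′ on the strand of the gene, because these genes lay toward either end of the comparison of progenitor-like cells with and without replication transcripts described further on. Capitals mark the letters of the CCAAT box and of both CHR forms, on either strand. The first 3 were relatively high in vehicle tumor cells with few replication transcripts and the last 3 were relatively low in them.
Cdc20, chr4:118437344-118437493, minus strand: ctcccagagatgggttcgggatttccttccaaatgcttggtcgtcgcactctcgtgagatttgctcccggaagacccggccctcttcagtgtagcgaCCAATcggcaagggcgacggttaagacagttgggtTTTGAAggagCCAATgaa
Pttg1, chr11:43425982-43426131, minus strand: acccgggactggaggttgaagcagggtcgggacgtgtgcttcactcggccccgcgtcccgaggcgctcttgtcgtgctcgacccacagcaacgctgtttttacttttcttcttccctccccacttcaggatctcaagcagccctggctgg
Cenpa, chr5:30666736-30666885, plus strand: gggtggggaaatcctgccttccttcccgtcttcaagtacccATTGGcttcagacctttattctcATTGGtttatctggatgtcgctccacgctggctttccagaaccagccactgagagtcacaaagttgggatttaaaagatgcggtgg
Neil3, chr8:53639066-53639215, minus strand: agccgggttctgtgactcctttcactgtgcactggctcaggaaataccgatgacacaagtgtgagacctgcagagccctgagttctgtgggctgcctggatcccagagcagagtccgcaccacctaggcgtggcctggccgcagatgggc
Cenpk, chr13:104228461-104228610, plus strand: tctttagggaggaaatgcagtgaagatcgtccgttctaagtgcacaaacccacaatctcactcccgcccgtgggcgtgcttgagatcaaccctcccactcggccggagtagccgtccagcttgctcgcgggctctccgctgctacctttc
Top2a, chr11:99024190-99024339, minus strand: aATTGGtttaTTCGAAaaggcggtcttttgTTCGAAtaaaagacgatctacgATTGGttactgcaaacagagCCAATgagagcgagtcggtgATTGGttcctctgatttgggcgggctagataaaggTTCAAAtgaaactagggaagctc
The printed stretch of Cdc20 held 2 matches to CCAAT and 1 to TTTGAA, and that of Cenpa held 2 to ATTGG. The whole Top2a promoter held 6 matches to CCAAT or ATTGG and 4 to the CHR forms, several of them within the printed stretch. No match lay in the printed stretch of Pttg1, Neil3 or Cenpk. Elsewhere in the searched window, Cenpa held 1 match to TTTGAA after the start, Neil3 held 1 to TTCGAA and Cenpk 1 to CCAAT, whereas Pttg1 held none. The RefSeq start is not always that of the GENCODE M21 gene annotation. The whole searched window of Pttg1 and most of the printed stretch of Cenpa lie inside the genes as GENCODE places them, so the letters before the GENCODE start of Pttg1 were not searched.

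Total UMIs per table ranged from 2310474 to 5952919 in WT, from 4307404 to 17708677 in vehicle and from 2601001 to 10922460 in vismodegib, and 7224.0, 18293.0 and 12429.0 cells were kept. Cells were clustered without the mitotic, replication and other cell cycle genes, separately for tumors and WT, and clusters were named by markers. In tumors 3 clusters were progenitor-like by Atoh1, Gli1, Ptch1, Hhip, Sfrp1 and related markers, several of which are targets of the pathway that vismodegib inhibits, so that membership in vismodegib tumors depends on them. The largest held 41.1% of the progenitor-like cells of vehicle tumors and 71.2% of those of vismodegib tumors, and the others held 36.4% and 22.5% in vehicle and 12.5% and 16.3% in vismodegib. A tumor cluster with 12.2% of vehicle and 9.10% of vismodegib cells reached no class and was left unnamed, as were clusters led by globin genes, with 25.7% of WT, 3.91% of vehicle and 6.30% of vismodegib cells.

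Over all cells, the 57 genes summed to 12683 ± 1246 CPM (UMI counts scaled to the same total in every animal; mean ± SD, n = 5) in vehicle tumors, 9621 ± 1663 in vismodegib tumors and 8460.5 ± 1333 in WT cerebella. The vehicle tumors lay at 11172, 12859, 13179, 11818 and 14388 CPM, the vismodegib tumors at 10299.7, 11511, 10397, 8592 and 7304, and the WT cerebella at 10824, 7871, 7720.3, 7733 and 8153. The vismodegib mean was 0.759 of the vehicle mean, but the highest vismodegib tumor lay above the lowest vehicle tumor. Each vehicle tumor lay above every WT cerebellum, with a ratio of means of 1.499. WT 1 was higher than the other WT cerebella. An earlier look at these data had divided the tumors, with no label behind it, into vehicle 1 and 3 with vismodegib 1, 2 and 3, and vehicle 2, 4 and 5 with vismodegib 4 and 5, and the ratio of vismodegib to vehicle was 0.882 in the first division, with overlap, and 0.610 in the second, without. In sums over all cells, fewer cells with these transcripts and less of them per cell cannot be told apart, and the same values were therefore taken within classes of cells.

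Within progenitor-like cells the tumor groups did not keep this order. The sum was 14594 ± 2118 CPM in WT, 16007 ± 1159 in vehicle and 17165 ± 1601 in vismodegib (n = 5 each). Vehicle tumors lay at 14266, 16264, 16038, 15951 and 17514 CPM and vismodegib tumors at 17642, 17681, 14814, 19129 and 16558, so that the ranges overlapped, with a ratio of means of 1.07 and of 1.10 and 1.08 within the tumor divisions. The WT cerebella lay at 18370.3, 13752, 13426, 13571 and 13849 CPM, with WT 1 again highest. Within the 3 progenitor-like tumor clusters the means of vehicle and vismodegib were 16112 and 17407 CPM in the largest, and 16194 and 15955 CPM and 15598 and 17625 CPM in the others. The tumor groups overlapped in each of these clusters.

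Progenitor-like cells made up 56.2% ± 7.09 of cells in vehicle tumors, 24.9% ± 8.31 in vismodegib tumors and 21.8% ± 5.09 in WT (n = 5), and late differentiating-like cells made up 5.72% ± 3.41, 29.8% ± 13.1 and 15.1% ± 3.96. In early differentiating-like cells, which carry markers of newly postmitotic granule neurons such as Cntn2 and Nhlh1, the 57 genes summed to 4622 ± 1668 CPM in vehicle, 5994 ± 1483 in vismodegib and 4379.7 ± 1382 in WT. In late differentiating-like cells, with markers such as Grin2b and Rbfox3, they summed to 1912 ± 287, 1647 ± 385 and 1654 ± 267 CPM. The mean level thus stepped down from progenitor-like through early to late differentiating-like cells in each group. Purkinje-like cells of WT, which are postmitotic, gave 737 ± 183 CPM. The early differentiating-like sum depended on the clustering, at 8942 CPM in vehicle and 12032 in vismodegib with fewer clusters (resolution 0.4) and at 9410.5 CPM in WT with more (resolution 1.2).

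**Figure D1:**
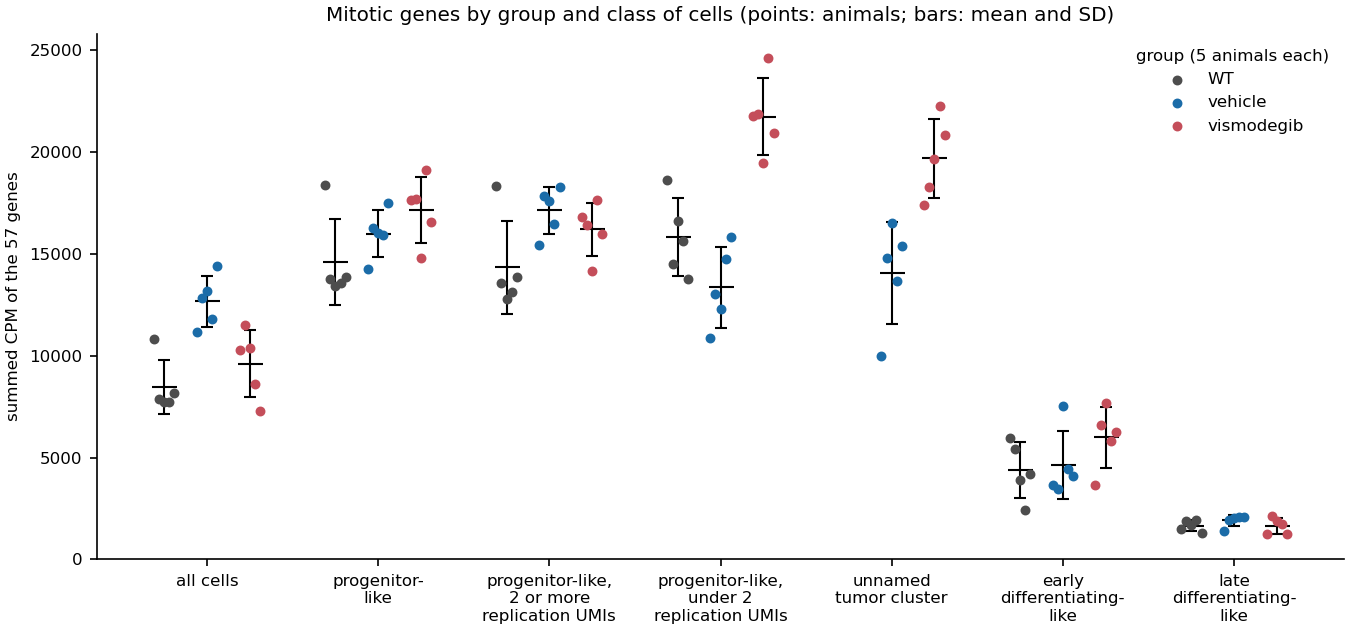
Summed CPM of the 57 mitotic genes (vertical axis, from 0) in classes of cells (horizontal axis) for WT, vehicle and vismodegib; points are animals, and black bars are the mean and SD of 5 animals. Vehicle lay highest over all cells, the groups overlapped in progenitor-like cells, and vismodegib lay above vehicle without overlap in progenitor-like cells with under 2 replication UMIs (21751 against 13364 CPM).

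The shares of the classes and the levels within them were set apart by arithmetic over progenitor-like cells, the unnamed tumor cluster, early and late differentiating-like cells and all remaining cells. With each vismodegib tumor's own shares of UMIs in these classes and the mean vehicle levels of the 57 genes, the sum would have been 8552 ± 1436 CPM, or 0.677 of the corresponding vehicle value. With the mean vehicle shares and each vismodegib tumor's own levels it would have been 14216 ± 956 CPM, above the corresponding vehicle mean of 12628 ± 1158. The tumors then lay from 13156 to 15697 CPM in vismodegib and from 10770 to 13648 CPM in vehicle, so the groups overlapped. The observed ratio was 0.759. In this arithmetic the value with the vismodegib tumors' own shares lay below vehicle, and the mean with their own levels lay above it. The classes rest in part on markers that are targets of the inhibited pathway, so shares and levels are not independent of treatment. The part of either in the fall was not tested.

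In the unnamed tumor cluster the 57 genes summed to 10002, 14782, 16498, 13677 and 15413 CPM in the vehicle tumors and to 17396, 18314, 19651, 22287 and 20854 in the vismodegib tumors. The lowest vismodegib tumor lay above the highest vehicle tumor, with a ratio of means of 1.40 and of 1.39 and 1.48 within the tumor divisions. The summed CPM of the DNA replication genes there was 5343 ± 598 in vehicle and 7016 ± 416 in vismodegib. The cells had a median of 1898.5 UMIs in vehicle and 3111 in vismodegib, and the part of depth in the difference was not tested.

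Levels of single genes were compared as CPM, since each UMI stands for 1 captured molecule read near its 3′ end and needs no scaling by length. In progenitor-like cells of vehicle tumors the mean levels ran from 49.3 CPM for Cks2 to 1402 CPM for Smc2, with a median of 196 CPM. Smc2 and Smc4, the ATPase subunits of condensin, Top2a, the topoisomerase that untangles sister DNA, Mki67, which coats mitotic chromosomes, and Cenpf, an outer kinetochore protein, were the 5 highest genes in each group. They held 38.0% of the summed CPM in vehicle, 40.2% in vismodegib and 34.2% in WT. The 9 genes of chromosome structure, cohesion and repair held 36.9% ± 5.28, 38.4% ± 2.83 and 33.7% ± 2.29 of the sum in vehicle, vismodegib and WT. The 9 genes of the centromere and kinetochore held 17.8% ± 1.39, 18.0% ± 0.772 and 19.3% ± 0.673. The other 7 roles each held between 3.81% (spindle checkpoint, vismodegib) and 9.85% (cyclins and Cdk1 partners, WT).

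The genes differed in how far they varied between animals of a group. The median coefficient of variation over the 57 genes in progenitor-like cells was 19.1% in vehicle, 16.8% in vismodegib and 23.0% in WT. Pttg1, which encodes securin, was highest in both tumor groups and reached 127% in vehicle. Its level was 34.5, 39.0, 24.7, 32.8 and 247 CPM in the vehicle tumors, 41.5, 42.0, 36.3, 229 and 234 CPM in the vismodegib tumors, and 47.9, 48.5, 52.2, 49.2 and 47.4 CPM in WT. Vehicle 5, vismodegib 4 and vismodegib 5 thus had levels several times those of the other tumors, and the WT cerebella were close to each other. The same tumors were highest over all cells, where vehicle tumors had 27.1, 33.8, 19.3, 25.7 and 207 CPM and vismodegib tumors 36.6, 27.8, 31.8, 108 and 113. Pttg1 lies on chromosome 11 at positions 43420250 to 43426251 of GRCm38, on the minus strand. Cks2, which encodes a small subunit that binds CDK1, was next in vismodegib tumors with 73.7%, at 19.2, 16.8, 73.8, 123 and 65.0 CPM. In vehicle tumors Ube2c, the ubiquitin-conjugating enzyme of the anaphase-promoting complex, was next with 47.7%, at 231, 578, 299, 699 and 805 CPM. Ccnb1, Ccnb2, Cdc20 and Cenpa had 41.8%, 39.6%, 37.6% and 33.6%, and these 4 genes and Ube2c were each lower in vehicle 1 and 3 than in the other vehicle tumors, as in the tumor division. In WT, Kif20a was highest with 53.6%, at 74.5, 39.5, 16.5, 33.4 and 34.8 CPM, followed by Plk1, Aspm and Anln with 47.0%, 47.0% and 45.7%.

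The number of cells with these transcripts was separated from the level in such cells by reducing every cell to 500 UMIs at random. At that depth, 72.2% ± 2.01 of progenitor-like cells in vehicle tumors had at least 2 UMIs of the 57 genes, against 85.0% ± 1.76 in vismodegib tumors and 79.0% ± 3.21 in WT (n = 5). The vehicle tumors ranged from 70.6% to 75.6% and the vismodegib tumors from 83.6% to 87.9%, without overlap, and the ratio of means was 1.19 and 1.18 within the tumor divisions. In cells that passed this limit the mean was 9.31 ± 0.567 UMIs of the 57 genes in vehicle, 9.18 ± 0.730 in vismodegib and 8.0 ± 0.958 in WT. The share of cells was therefore separate between the treatments, whereas the level in positive cells differed by less than the spread between tumors. In Purkinje-like cells the share was 14.4% ± 9.32 (14 of 107 cells). Without the reduction the shares of progenitor-like cells were 92.4%, 97.1% and 94.9% in vehicle, vismodegib and WT, at median depths of 2044, 2799 and 2166.5 UMIs per progenitor-like cell and 2873 per Purkinje-like cell. No cell was left out for depth, since each kept cell had at least 500 UMIs. Cells with at least 10 UMIs of the 57 genes at the reduced depth made up 30.7% ± 2.42, 35.6% ± 5.06 and 26.0% ± 5.53.

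**Figure D2:**
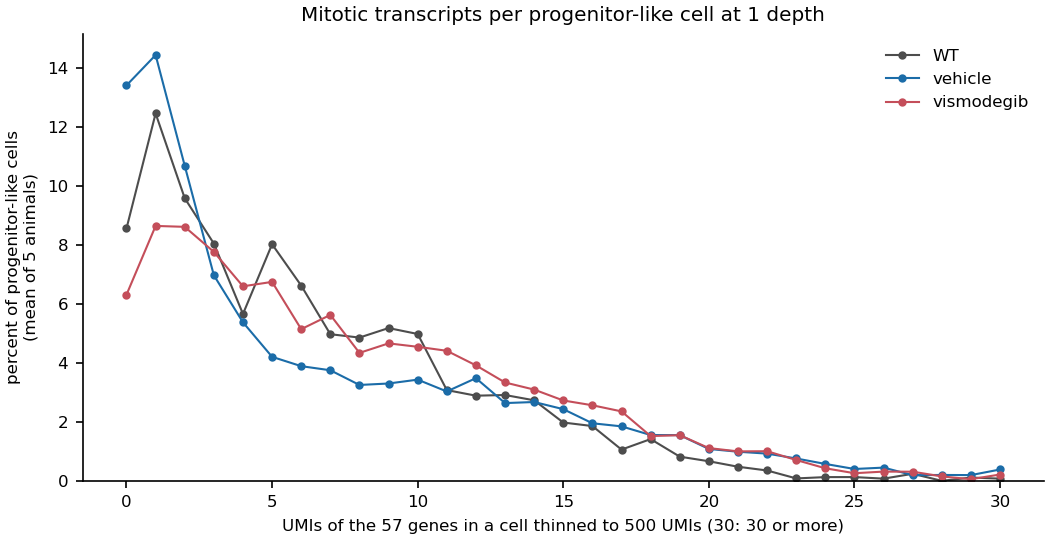
Percent of progenitor-like cells (vertical axis, mean of 5 animals) against the number of UMIs of the 57 genes in a cell reduced to 500 UMIs (horizontal axis; 30 stands for 30 or more), for WT, vehicle and vismodegib. Vehicle tumors had the most cells with 0 or 1 such UMI (13.4% and 14.4%), and vismodegib tumors had the fewest (6.31% and 8.64%).

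Progenitor-like cells were next divided by transcripts of DNA replication genes such as Mcm2, Pcna and Rrm2, none of which is among the 57. At 500 UMIs, cells with 2 or more replication UMIs made up 37.4% ± 5.20 of all cells in vehicle, 20.5% ± 6.65 in vismodegib and 17.3% ± 4.08 in WT, and those with under 2 made up 18.8% ± 2.59, 4.37% ± 2.07 and 4.53% ± 1.02. In cells with 2 or more, the 57 genes summed to 17138 ± 1156 CPM in vehicle, 16213 ± 1307 in vismodegib and 14337 ± 2266 in WT, and the groups overlapped. In cells with under 2, they summed to 13364 ± 1982, 21751 ± 1882 and 15829 ± 1903 CPM. The vehicle tumors lay at 10851, 13048, 12297, 14776 and 15846 CPM and the vismodegib tumors at 21788, 21874, 19487, 24648 and 20959, so that every vismodegib tumor exceeded every vehicle tumor, with a ratio of means of 1.63 and of 1.82 and 1.57 within the tumor divisions. The groups were separate also within the largest progenitor-like cluster, at 13565 ± 2442 and 21798 ± 2087 CPM.

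The share of cells with under 2 replication UMIs that had at least 2 mitotic UMIs was 52.9% ± 5.25 in vehicle, 81.2% ± 4.97 in vismodegib and 69.8% ± 7.20 in WT, without overlap between the tumor groups. The division is a range rather than a class of cells, since 18.1% of progenitor-like cells in vehicle tumors had 1 replication UMI and 16.3% had 2, and 11.9% and 15.7% did so in vismodegib tumors. Cells with 0 replication UMIs made up 15.5% in vehicle and 6.55% in vismodegib tumors. The cells with under 2 were thus not the same mix in both groups, and the part of this in the difference was not tested. They numbered 3666 in vehicle and 513 in vismodegib tumors. In the cells with under 2, the median over cells of the summed CPM of early differentiating markers was 1693 in vehicle and 2093 in vismodegib, that of late differentiating markers 917 and 722, and that of astrocyte markers 622 and 184, whereas oligodendrocyte and microglia markers had a median of 0 in both. Progenitor markers had a median of 3571 CPM in vehicle and 2622 in vismodegib. Gaps in the same directions were present in cells with 2 or more replication UMIs. There the medians in vehicle and vismodegib were 1538 and 1984 for early and 825 and 728.5 for late differentiating markers. Those of astrocyte markers were 420 and 186, and those of progenitor markers 3429 and 2478. The part of these markers in the difference was not tested.

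The single genes fell into an order along this division. In vehicle tumors the ratio of CPM in cells with under 2 replication UMIs to that in cells with 2 or more had a median of 0.765 over the 57 genes, and 34 genes were lower and 5 were higher in every tumor. Esco2, which acetylates cohesin during S phase, had the lowest ratio, 0.376, at 109 ± 23.2 against 291 ± 46.0 CPM. Neil3, a DNA glycosylase, followed at 0.402, and the kinetochore genes Cenpk and Spc24 had 0.456 and 0.456. Pbk, a mitotic kinase, stood at 0.487, Aurkb, the kinase of the chromosomal passenger complex, at 0.539 and Top2a at 0.552. At the other end, Cdc20, the activator of the anaphase-promoting complex, had a ratio of 1.43, at 326 ± 124 against 228 ± 83.9 CPM. Pttg1 had 1.35 and Cenpa, the centromeric histone, had 1.33. The genes higher in all 5 vehicle tumors were Cdc20, Pttg1, Cenpa, Ccnb2 and Cenpe.

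In vismodegib tumors the ratios were higher for most genes. The median ratio was 1.32, 27 genes were higher in cells with under 2 replication UMIs in every tumor, and Esco2 alone was lower in every tumor, at 0.647. Plk1, a kinase of mitotic entry and spindle assembly, had the highest ratio, 2.19, at 149 ± 38.0 against 68.0 ± 7.74 CPM, whereas in vehicle tumors it stood at 0.970. Cdc20 had 2.13, Cenpa 2.01, Ccnb1 1.94, Ube2c, the ubiquitin-conjugating enzyme of the anaphase-promoting complex, 1.93 and Ccnb2 1.90. In WT the median was 1.07, with 12 genes higher and 5 lower in every animal. Since both sets of cells were taken from the same animals by their replication transcripts, these ratios are a description with no test.

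**Figure D3:**
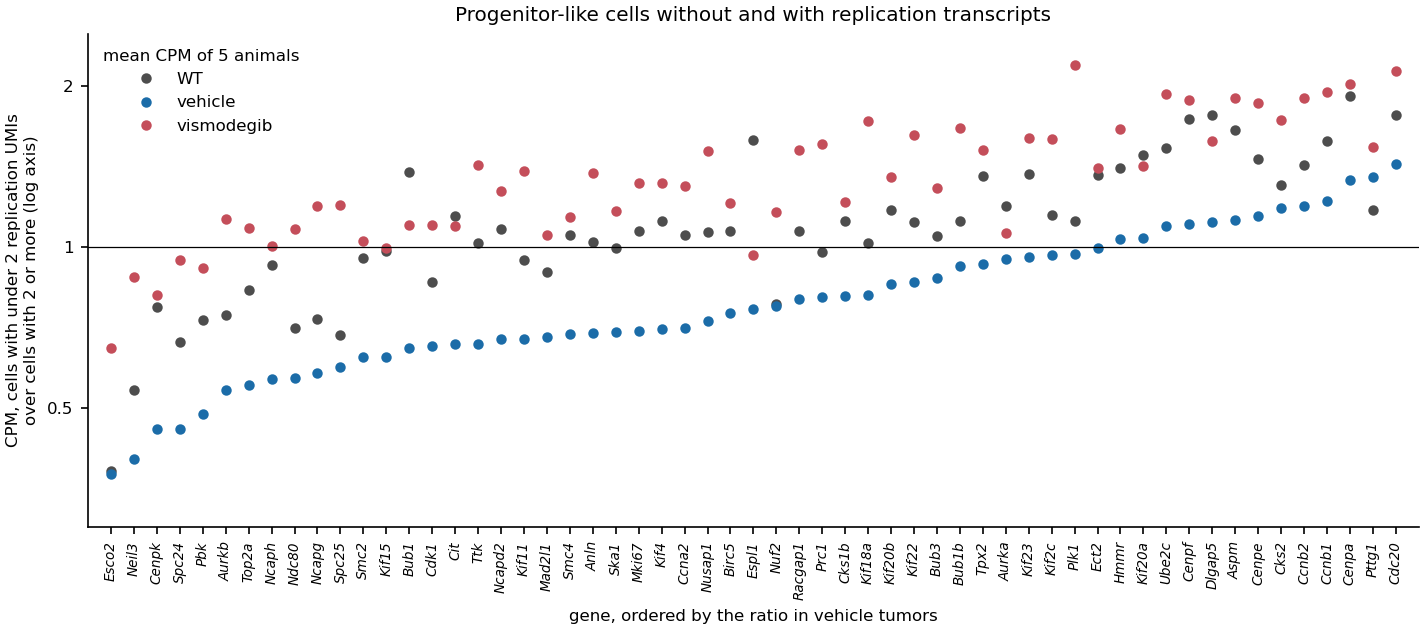
Ratio of mean CPM in progenitor-like cells with under 2 to that with 2 or more replication UMIs (vertical log axis; line at 1) for each of the 57 genes, ordered along the horizontal axis by the ratio in vehicle tumors; points are ratios of means over 5 animals of WT, vehicle and vismodegib. Vehicle tumors ran from 0.376 (Esco2) to 1.43 (Cdc20), and vismodegib tumors lay above vehicle for most genes, up to 2.19 (Plk1).

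The effect of vismodegib on single genes was then tested on UMI counts summed per animal. Over all cells, 18 of the 57 genes fell and none rose, at a Benjamini-Hochberg adjusted p under 0.05 in the quasi-likelihood test of edgeR on 13190 genes, of which 4.69% fell. The median log2 fold change of the 57 genes was -0.49, against -0.00 for all genes tested, and 56 of the 57 were negative. With edgeR, 37 of the 57 had an unadjusted p under 0.05, against 28.0% of all genes tested. For 9 of the 57 the vismodegib and vehicle tumors did not overlap. The share of all genes without overlap is not given here, so this count has no background. The number that fell was 28 without vehicle 1, 10 without vehicle 2, 9 without vehicle 5, 12 without vismodegib 1, 10 without vismodegib 4 and 10 without vismodegib 5, and the median lay between -0.55 and -0.40 over all fits without 1 tumor. DESeq2 called 27 lower, including all 18, and a fit with the tumor division as a term called 24, including 17 of them. Calls over all genes, in either direction, moved as well. They numbered 1836 in the main fit and 1273 to 2131 without 1 tumor. Other settings, DESeq2 among them, gave 1845 to 2732, the highest with the tumor division.

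Among the genes of chromosome structure, cohesion and repair, 4 of 9 fell. Neil3 fell by 0.83 on the log2 scale (SE 0.20, edgeR adjusted p = 0.0152), from 74.6, 51.1, 46.9, 38.3 and 51.4 CPM in vehicle to 25.9, 42.2, 35.9, 23.2 and 23.9 in vismodegib. This was the largest log2 fold change of the 57, although the tumor groups overlapped. Smc2 fell by 0.73 on the log2 scale (SE 0.14, edgeR adjusted p = 0.00485), from 1129.5, 984, 1046, 1024 and 1158 CPM to 834, 742, 653, 580.1 and 496, without overlap. Its condensin partner Smc4 stood at 1106 ± 113 CPM in vehicle and 958 ± 252 in vismodegib and did not pass (log2 fold change -0.24, edgeR adjusted p = 0.425). Esco2 fell by 0.71 on the log2 scale (edgeR adjusted p = 0.00794) and the condensin subunit Ncapg by 0.58 (edgeR adjusted p = 0.0149). Top2a and Mki67, among the most abundant of the 57, did not pass, with log2 fold changes of -0.16 and -0.27.

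Of the mitotic kinases and their partners, 4 of 5 fell. Aurkb fell by 0.74 on the log2 scale (SE 0.17, edgeR adjusted p = 0.0116), from 111, 97.4, 72.9, 74.5 and 126 CPM to 69.5, 71.1, 56.3, 49.2 and 50.5, and the groups did not overlap. Birc5, or survivin, which sits in the same complex, Aurka, which acts at spindle poles, and Pbk fell by 0.55, 0.58 and 0.55 on the log2 scale, whereas Plk1 had a log2 fold change of -0.41 (edgeR adjusted p = 0.226). Among cyclins and Cdk1 partners, 2 of 6 fell. Cdk1, the kinase that drives mitotic entry, fell by 0.72 on the log2 scale (SE 0.16, edgeR adjusted p = 0.0100), from 211, 247, 168, 215 and 325 CPM to 162, 139.8, 153, 138 and 131, and the groups did not overlap. Cks1b, a small CDK-binding subunit, fell by 0.71 on the log2 scale (edgeR adjusted p = 0.0425). Ccna2, Ccnb1, Ccnb2 and Cks2 did not pass, with log2 fold changes of -0.29, -0.53, -0.67 and -0.40.

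Of the 9 genes of the centromere and kinetochore, Cenpa, Ska1, Ndc80 and Spc24 fell, by 0.69, 0.65, 0.54 and 0.46 on the log2 scale, with edgeR adjusted p from 0.0171 to 0.0467. Of the 9 kinesins, which move along or take apart spindle microtubules, Kif2c fell by 0.71 on the log2 scale (edgeR adjusted p = 0.0115) and Kif18a by 0.64 (edgeR adjusted p = 0.0325). Kif2c went from 58.3, 86.3, 55.7, 65.9 and 87.7 CPM to 44.0, 50.8, 48.6, 37.8 and 42.8, without overlap. Of the 5 spindle assembly proteins, Dlgap5 and Nusap1 fell, by 0.63 and 0.62 on the log2 scale. None of the 5 spindle checkpoint genes, the 5 cytokinesis genes or the 4 genes of the anaphase-promoting complex, securin and separase passed in edgeR, with 4, 3 and 1 at an unadjusted p under 0.05 and median log2 fold changes of -0.46, -0.37 and -0.46, whereas DESeq2 also called Ttk, Anln, Racgap1 and Cdc20. Ttk, a checkpoint kinase, had an edgeR adjusted p of 0.0524, and Racgap1, of the central spindle, one of 0.0592 with no overlap between the groups. Pttg1 stood at 62.5 ± 80.7 CPM in vehicle and 63.3 ± 43.0 in vismodegib, with a log2 fold change of 0.00 (SE 0.65).

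Within progenitor-like cells none of the 57 genes passed the same test between vismodegib and vehicle, where 2.98% of 10788 genes passed in either direction. With edgeR, 3 of the 57 had an unadjusted p under 0.05, against 14.65% of all genes tested, and DESeq2 also called 0 of the 57. The median log2 fold change was 0.07, against 0.00 for all genes, 37 were positive and 20 negative, and each gene overlapped between the groups. For these cells, too, the share of all genes without overlap is not given. The median moved by over 1.5 times without single tumors, to 0.02 without vehicle 1, 0.04 without vehicle 3, 0.13 without vehicle 5, 0.11 without vismodegib 1, 0.12 without vismodegib 3 and 0.04 without vismodegib 4, and the positive genes numbered 31 to 50. Cenpk, with 129.5, 136, 108, 155 and 129.9 CPM in vehicle and 169, 144, 166, 218 and 166 in vismodegib, had a log2 fold change of 0.40 (SE 0.16, edgeR adjusted p = 0.244). It was the only one of the 57 called when the tumor division was a term, in a fit that called 660 of 10788 genes. Ccna2, the cyclin of S phase and G2, had 0.34 (SE 0.13, edgeR adjusted p = 0.237), at 241 ± 23.7 CPM in vehicle and 304 ± 40.5 in vismodegib, and Top2a had 0.37 (SE 0.16, edgeR adjusted p = 0.293). Neil3, Smc2, Cdk1 and Aurkb, which fell over all cells, had log2 fold changes of -0.16, -0.16, -0.10 and -0.10.

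The genes with the largest and smallest changes in each remaining role gave log2 fold changes no larger than 2 SE. The spindle checkpoint kinase Bub1 had 0.22 (SE 0.17) and its binding partner Bub3 -0.10 (SE 0.19). Among kinesins, Kif15, which supports the bipolar spindle, had 0.29 (SE 0.16), and Kif2c, which takes microtubules apart, had -0.23 (SE 0.19). Of the spindle assembly proteins, Tpx2, which activates Aurora A on microtubules, had 0.03 (SE 0.14), and Dlgap5 had -0.13 (SE 0.19). Of the cytokinesis genes, Ect2, the exchange factor that starts the contractile ring, had 0.24 (SE 0.18), and Anln, which anchors it, had 0.02 (SE 0.15). Pttg1 had 0.65 (SE 0.69), the highest value of the 57, with the tumors spread as given above. Cdc20 had -0.09 (SE 0.24) and Plk1 0.19 (SE 0.21). A p that misses the threshold does not show that the levels were equal.

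**Figure D4:**
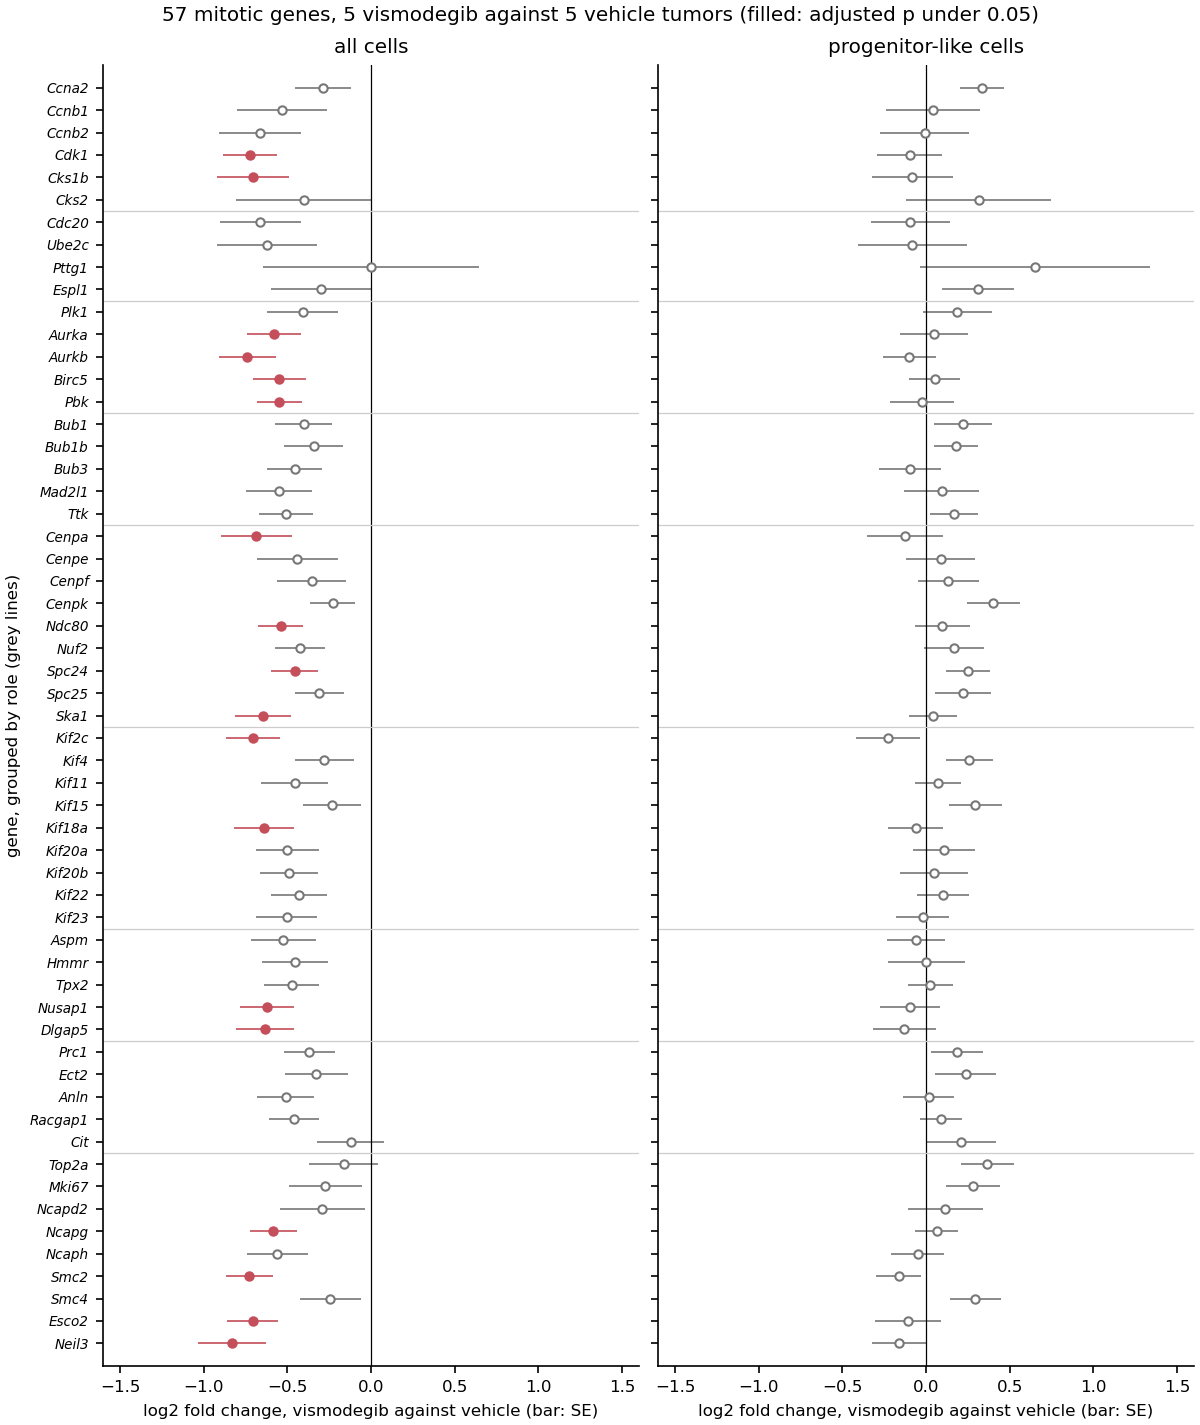
Log2 fold change of vismodegib against vehicle (horizontal axis; point, estimate; bar, SE; filled, adjusted p under 0.05 by edgeR) for each of the 57 genes (vertical axis, grouped by role), over all cells on the left and in progenitor-like cells on the right, with 5 tumors a group. Over all cells 56 genes lay below 0 and 18 passed, whereas in progenitor-like cells the genes lay on both sides of 0 and none passed.

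In early differentiating-like cells, 56 of the 57 genes were tested, Neil3 having too few counts, and none passed, where 0.153% of 8492 genes passed in either direction. With edgeR, 10 of the 56 had an unadjusted p under 0.05, against 7.75% of all genes tested, and DESeq2 called 0 of the 56. The median log2 fold change was 0.42, against 0.01 for all genes, and 53 of the 56 were positive. The median was 0.31 without vehicle 2 and 0.65 without vehicle 3, the lowest and highest over fits without 1 tumor. Most cells of the class held few such transcripts. At 500 UMIs per cell, 40.9% of early differentiating-like cells in vehicle and 44.1% in vismodegib had 0 UMIs of the 57 genes, and 27.3% ± 4.14 and 26.7% ± 6.22 had at least 2. Cells with at least 10 made up 3.25% ± 2.42 and 5.80% ± 1.82 (n = 5), and the groups overlapped through vehicle 3, at 7.48%. Spc25, a kinetochore subunit, had a log2 fold change of 0.83 (SE 0.23, edgeR adjusted p = 0.232), at 73.7 ± 24.8 CPM in vehicle and 130.1 ± 33.3 in vismodegib. Hmmr, a spindle-associated protein, had a log2 fold change of 0.87 (SE 0.28, edgeR adjusted p = 0.366), at 62.8 ± 28.9 and 113 ± 35.5 CPM. Without a filter on low counts 4 of the 57 genes were called higher, namely Hmmr, Pttg1, Spc25 and Top2a. That fit called 139 of 20632 genes in either direction. Pttg1 was again highest in single tumors, at 66.2 CPM in vehicle 5 and 79.2 and 109 CPM in vismodegib 4 and 5. The summed CPM of the 57 genes overlapped between the tumor groups, with a ratio of 1.07 in the first tumor division and of 1.52 without overlap in the second.

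The late differentiating-like cells were low in nearly all of the genes. Their CPM was below that of progenitor-like cells in every animal for 57 genes in vehicle, 57 in vismodegib and 56 in WT, with a median over genes of 10.4%, 7.70% and 10.3% of the progenitor-like level. In vehicle tumors Cdk1 stood at 11.0 CPM in late cells, or 3.72% of its progenitor-like level, and Smc2 at 174 CPM, or 12.4%. Cit, Ncapd2 and Bub3 kept the most there, at 62.2%, 38.4% and 35.3%, Cit with 34 UMIs in late cells. In WT, Cit was below its progenitor-like level in 4 of 5 animals. Early differentiating-like cells lay between, at a median of 26.2%, 33.4% and 28.7%. These values compare classes formed from the same cells and have no test.

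Outside the granule lineage, the sum was 3558 ± 1452, 4127 ± 2256 and 2557 ± 808 CPM in astrocyte-like cells of WT, vehicle and vismodegib, and 5727 ± 2278, 5131 ± 1858 and 3742 ± 1125 CPM in oligodendrocyte-like cells. Microglia-like cells had 4499.8 ± 2239.6, 4024 ± 654 and 3333 ± 1387 CPM and fibroblast-like cells 3514 ± 2339, 2637 ± 1109 and 2233 ± 815. In each of these 4 classes vismodegib had the lowest mean and overlapped with vehicle. Of the GABAergic-like clusters of WT, 1 had 9785 ± 1608 CPM and the other 1499 ± 155.

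Vehicle tumors were compared with WT cerebella to ask which mitotic genes were higher in the tumors than in the developing tissue. Over all cells, 27 of the 57 genes were higher in vehicle tumors and Cks2 was lower, where edgeR called 23.0% of 13636 genes higher and 25.0% lower. The median log2 fold change was 0.45, against 0.03 for all genes. Of the kinesins 7 of 9 were higher, of the chromosome structure genes 7 of 9, and of the cytokinesis genes 3 of 5, whereas of the 5 spindle checkpoint genes 1 was. Kif23, a kinesin of the central spindle, was higher by 1.59 on the log2 scale (SE 0.17, edgeR adjusted p = 6.22e-06), and Smc2 by 1.57 on the log2 scale (SE 0.12, edgeR adjusted p = 3.27e-07). Espl1, the separase that cuts cohesin, and Smc4 were higher by 1.46 (SE 0.19) and 1.40 (SE 0.13) on the log2 scale. Without a filter on low counts 37 genes were higher and 1 was lower, and leaving out 1 animal gave 21 to 36 higher. Calls over all genes, in either direction, numbered 6539 in the main fit, 8611 without the filter and 5808 to 6731 without 1 animal.

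Within progenitor-like cells 4 of the 57 were higher and 10 were lower, where edgeR called 18.3% of 11106 genes higher and 20.5% lower. With the further scaling between libraries in edgeR (TMM), which CPM lack, the median log2 fold change was -0.05, against 0.05 for all genes. Its sign turned without WT 1, to 0.05, and without vehicle 1, to 0.01, and it was -0.08 without WT 2, -0.08 without WT 5 and -0.15 without vehicle 5. The split depended on the filter on low counts, since without it 11 were higher and 2 lower, and the median of the 57 was 0.16 where that of all genes was 0.13. Without the WT progenitor-like cluster of high UMI counts 7 were higher and 5 lower, and without WT 1 there were 9 of each. Calls over all genes, in either direction, numbered 4308 in the main fit, 6489 without the filter, 3614 without that cluster and 3723 to 4459 without 1 animal. The 4 that were higher were Smc2, Smc4, Kif23 and Espl1.

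Smc2 stood at 1456, 1277, 1386, 1440 and 1451 CPM in the vehicle tumors and at 669, 588, 577, 689.6 and 618 in the WT cerebella, a log2 fold change of 1.03 (SE 0.13, edgeR adjusted p = 1.19e-05). Smc4 stood at 1226, 1327, 1495, 1324 and 1444 CPM and at 849.5, 608, 753, 684 and 673, a log2 fold change of 0.81 (SE 0.14, edgeR adjusted p = 0.000240). Neither gene overlapped between vehicle and WT. Kif23 was higher by 1.01 on the log2 scale (SE 0.17, edgeR adjusted p = 0.000161), at 123 ± 26.2 CPM in WT and 272 ± 53.6 in vehicle, and Espl1 by 0.86 on the log2 scale (SE 0.20, edgeR adjusted p = 0.00215), at 24.4 ± 5.80 and 49.7 ± 7.14 CPM. The condensin genes Ncapd2, Ncapg and Ncaph did not pass, with log2 fold changes of 0.08, -0.06 and -0.01. Without the further scaling of edgeR, their mean CPM was higher in vehicle, at 156, 196 and 90.2, than in WT, at 131, 185 and 81.6. The Smc4 gene overlaps the annotated Mir15b and Mir16-2 on the same strand, so its count is less certain.

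Cks2 was lower, with a log2 fold change of -1.78 (SE 0.28, edgeR adjusted p = 8.17e-05) and 109, 146, 278, 168 and 103 CPM in WT and 38.8, 42.2, 36.1, 53.4 and 75.8 in vehicle tumors. Nuf2, a subunit of the kinetochore complex that binds microtubules, was lower, with a log2 fold change of -0.88 (SE 0.17, edgeR adjusted p = 0.000507) and 289, 199.5, 154, 205 and 164 CPM in WT and 103, 127, 112, 118 and 145 in vehicle. Both genes were separate between the groups. The kinetochore genes Ska1, Spc25 and Cenpk were also lower, with log2 fold changes of -0.62, -0.61 and -0.46. Mki67, a common marker of cycling cells, was lower, with a log2 fold change of -0.58 (SE 0.17, edgeR adjusted p = 0.0140), at 1433 ± 231 CPM in WT and 1052 ± 284 in vehicle. Its groups overlapped, with a range of 1144 to 1736 CPM in WT and of 808 to 1486 CPM in vehicle. Of the 14 genes called higher or lower, 6 were also called without the filter on low counts. Kif4, Neil3, Pbk and Dlgap5 were lower as well, with log2 fold changes of -0.58, -0.53, -0.50 and -0.50. In vismodegib tumors Cks2 stood at 59.5 ± 43.8 CPM, Nuf2 at 134 ± 30.4 and Mki67 at 1267 ± 158. Pttg1 had a log2 fold change of 0.55 (SE 0.53) and was at -0.67, lower than WT, without vehicle 5.

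**Figure D5:**
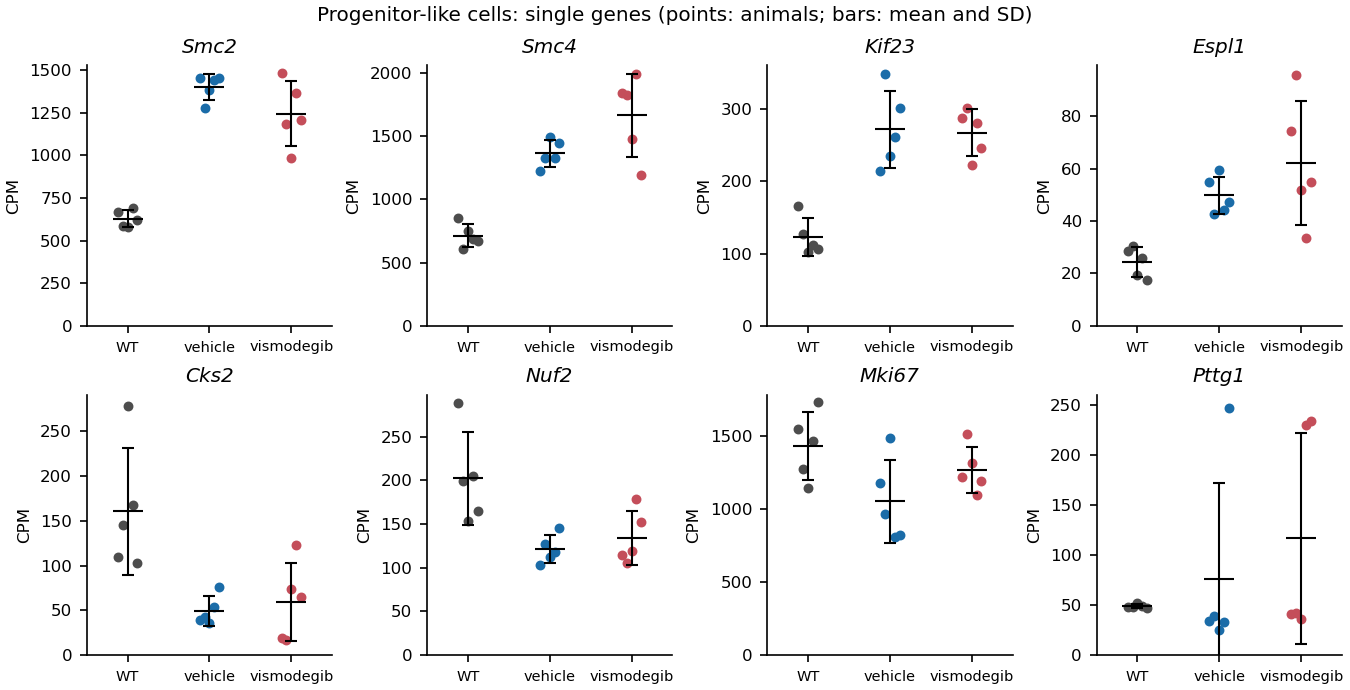
CPM in progenitor-like cells (vertical axes, from 0) of 8 genes in WT, vehicle and vismodegib; points are animals, and black bars are the mean and SD of 5 animals. Smc2, Smc4, Kif23 and Espl1 were higher in vehicle tumors than in WT, Cks2, Nuf2 and Mki67 were lower, and Pttg1 was above 200 CPM in vehicle 5, vismodegib 4 and vismodegib 5, with an SD bar in vehicle that would reach below 0 and ends at the axis.

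Other genes of the cell cycle were counted in the same fits. Of 87 further mitotic genes, edgeR called 20 lower and 0 higher over all cells between vismodegib and vehicle, with a median log2 fold change of -0.37, and 1 higher and 0 lower in progenitor-like cells, with a median of 0.10. The most abundant of them, Arl6ip1, Hjurp and Incenp, had -0.28, -0.41 and -0.40 over all cells, none passing. Of the 36 DNA replication genes, 10 fell over all cells, with a median of -0.34, whereas 5 rose and 0 fell in progenitor-like cells, with a median of 0.30. The most abundant of these, 2810417H13Rik, Dut and Lig1, did not pass in progenitor-like cells, with log2 fold changes of 0.32, 0.24 and 0.16. Over all genes, edgeR called 4.69% lower over all cells and 0.899% higher in progenitor-like cells. Whether the replication genes and the 57 differed in their change was not tested.

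Between vehicle and WT progenitor-like cells, 7 of the further mitotic genes were higher and 18 lower, and of the replication genes 1 was higher and 9 were lower. The first list had 86 genes tested and the second 36, and edgeR called 18.3% of all genes higher and 20.5% lower. Hjurp, the chaperone that places CENPA on centromeres, was higher by 1.09 on the log2 scale (SE 0.17, edgeR adjusted p = 7.09e-05), at 252 ± 34.9 CPM in WT and 588 ± 125 in vehicle, whereas Cenpa itself had a log2 fold change of -0.09 (edgeR adjusted p = 0.766). Of 112 other cell cycle genes kept out of clustering, of which 86 could be tested over all cells, 11 fell and 0 rose between vismodegib and vehicle by edgeR. The most abundant of these, Tubb5, Dek and Ccnd2, had -0.25, -0.28 and 0.04, none passing.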

How the data were processed

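Single cells of 5 WT cerebella, 5 vehicle and 5 vismodegib medulloblastomas were profiled by Drop-seq. The authors deposited raw UMI counts per gene and cell barcode, made with Drop-seq Tools and STAR on mm10 and hg19 per the labels; barcodes of tumors were chosen against the human spike-in and then aligned to the mouse genome with the transgene. Cells with at least 500 UMIs and 500 genes and no more than 5 SD above the animal's median of UMIs, genes or mitochondrial share were kept, which was also the only step against doublets. Tumor and WT cells were clustered separately (Louvain communities, resolution 0.8, igraph 0.11.9) without 292 cell cycle genes. Some cycle-linked genes, such as Dtl and Cdca7, were not on that list and took part. Clusters were named from markers at a mean log2 fold of at least 0.25, and clusters led by globin genes were left unnamed; both rules were set after the clusters were seen.

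Counts were summed per animal and class and tested with edgeR 4.0.16 (TMM, quasi-likelihood, Benjamini-Hochberg over all genes) in R 4.3.3, with DESeq2 1.42.0 as an alternative; cells were not used as replicates. The fits were run on simulated data in which some genes were changed by a set amount, larger than most changes of the 57. How often the fits find smaller changes was not measured. Log2 fold changes hold the TMM scaling and CPM do not, so small changes can differ in sign between them. Sums over the genes have no test. The 57 genes and all lists were chosen with earlier results of these data known. The genes named were those with the largest and smallest change and the highest level in each role, with further genes chosen after their values were seen. All 57 were found in GENCODE M21, and 12 overlap another annotated gene on the same strand (Tpx2, Ndc80, Kif11, Kif15, Kif20b, Anln, Nusap1, Top2a, Cks2, Ncapd2, Smc4 and Cit), so their counts are less certain. Alternatives were no filter on low counts, a 4 SD limit, other resolutions, leaving out each animal, a replicate block and the tumor division; alternatives on globin-led clusters and single progenitor-like clusters were added after seeing the data.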

Additional observations from a re-analysis of the deposited data

Results flagged for a closer look

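Of 149 groups of 5 animals looked at, 15 held an animal whose gap to the nearest other was over 0.71 of the group's range. Chance gives this in about 1 of 20 independent groups. The groups here reuse the same animals and hold single genes beside sums of them, so no excess can be read from the count. WT 1 was the highest WT animal in 7 of the 15. Its summed CPM of the 57 genes was 10820 over all cells against 7720 to 8153 in the others, 18370 in progenitor-like cells against 13430 to 13850, and 18320 in progenitor-like cells with 2 or more replication UMIs against 12770 to 13870. For single genes, WT 1 had 390.4 CPM of Tpx2 over all cells against 203.9 to 243.5, 661.7 CPM of Tpx2 in progenitor-like cells against 351.9 to 423.7, 102.4 CPM of Dlgap5 over all cells against 60.54 to 70.42, and 166.5 CPM of Aurkb in progenitor-like cells against 100.7 to 110.9.

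Vehicle 5 had 206.5 CPM of Pttg1 over all cells against 19.3 to 33.82 in the other vehicle tumors, and 246.8 CPM in progenitor-like cells against 24.71 to 39.01. It also had 229.2 CPM of Ccna2 over all cells against 174.6 to 183.9, and 75.61% of its progenitor-like cells had 2 or more mitotic UMIs against 70.62% to 71.9%. Vehicle 3 had 7524 summed CPM in early differentiating-like cells against 3441 to 4438, and 295.6 CPM of Kif15 in progenitor-like cells against 175.4 to 207.5. Vehicle 1 had 1407 summed CPM in late differentiating-like cells, below 1958 to 2093 in the others, and 57.29 CPM of Ect2 in progenitor-like cells, below 82.68 to 89.82.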

How the results depend on the processing

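For Pttg1, vehicle against WT had log2 fold changes from -0.86 to 0.63 over all cells and from -0.67 to 0.79 in progenitor-like cells when 1 animal was left out, with the sign turned without vehicle replicate 5. Over all cells, the members called between vismodegib and vehicle numbered 9 to 28 when 1 tumor was left out, where 1273 to 2131 of all genes were called. In progenitor-like cells, genes called between vismodegib and vehicle went from 321 to 556 with DESeq2 and 660 with the tumor division as a term, which called 1 member. In early differentiating-like cells, 13 calls became 51 with DESeq2, 139 without a filter, 27 with the replicate block, 59 with the division, 6 at the 4 SD limit, 57 at resolution 0.4, 44 at resolution 1.2 and 3 to 18 without 1 tumor, and members called were 4 without a filter and 2 with the block. In progenitor-like cells of vehicle and WT, 6489 genes were called without a filter, against 4308.

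The early differentiating-like sum was 9410.5 CPM in WT at resolution 1.2 and 5812.7 with globin-led clusters named by the next class, 8942.2 in vehicle at resolution 0.4, and 12032 and 7664.9 in vismodegib at resolutions 0.4 and 1.2. The late sum was 3065.4 and 1591.2 in vehicle at resolutions 0.4 and 1.2 and 2410.8 in vismodegib at 0.4, where WT had no such class. The share of positive progenitor-like cells in WT, vehicle and vismodegib was 94.867%, 92.398% and 97.142% at full depth, 90.897%, 87.434% and 94.759% at 1000 UMIs, 91.441%, 86.591% and 93.688% with at least 1 UMI, and 69.399%, 61.468% and 76.431% with at least 3. The causes were not tested.

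A pairing by animal number was not established. The methods name littermates without tying numbers to litters, and the deviations of same-numbered vehicle and vismodegib tumors correlated at -0.22 to 0.46 in progenitor-like cells. With the replicate block, 15 members were lower over all cells between vismodegib and vehicle, 14 of them among the 18. Calls over all genes there numbered 1845 to 2732 over settings other than leaving out a tumor, this block among them. Between vehicle and WT over all cells, 24 members were higher and 1 lower, in a fit that called 5712 of all genes in either direction. In progenitor-like cells of vehicle and WT, 4 were higher and 7 lower. There, settings other than leaving out an animal, this block among them, called 3614 to 6489 of all genes. Over single genes and alternatives, 1606 values kept direction and side of the threshold, 37 newly passed it, 45 no longer passed it, 74 changed sign without passing it in either fit and 2 changed sign where one of the fits passed it. Depth limits single genes with few UMIs, such as Cks2 and Espl1.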
